A study of Mus musculus with 18 samples.

Results

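The regions described here were 2349 stretches of 200 bp in the mouse genome that kept PU.1 through the conversion of pre-B cells into macrophage-like cells while neither C/EBPα nor C/EBPβ was read there above a low limit. They were chosen by read counts. In all 18 libraries 1 read per position and strand was kept, read starts were moved 75 bp inward, and reads were counted in 200-bp bins of chromosomes 1 to 19 and scaled to 10000000 reads per library, the unit of every level below. A bin was taken when PU.1 was 20 or more in all 5 PU.1 libraries, C/EBPα 5 or less in all 8 C/EBPα libraries and C/EBPβ 7 or less in all 5 C/EBPβ libraries. Of 12361703 bins, 11491 met the PU.1 condition and are called constant PU.1 bins, and 2349 of these, 20.4%, also met both C/EBP limits and are called PU.1-only bins. Touching bins formed 2111 sites, of which 1877 were 1 bin long, 230 were 2 bins and 4 were 3 bins. For comparison, 2077 constant PU.1 bins reached C/EBPα 20 or more in at least 1 library (constant PU.1 bins with C/EBP), and the other 7065 lay between.

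The cells were C10 cells, a line derived from HAFTL mouse pre-B cells that carries C/EBPα fused to the estrogen receptor and GFP. β-estradiol moves the fusion into the nucleus, and induced cells were grown with IL-3 and CSF-1, whereas control cells received the ethanol solvent. Chromatin was immunoprecipitated with 1 antibody per factor and sequenced at 0, 3, 12, 24 and 48 hours post-induction (hpi) for all 3 factors, and also at 10, 30 and 60 min for C/EBPα. Every combination of factor and time point was 1 library of 1 cell line, with no input or control immunoprecipitation used here, so no difference below has a replicate check. The intervals given are 95% intervals. Those for reads are exact Poisson and cover counting error only. Those for shares and their differences treat each bin as an independent draw, although bins can touch and share the same libraries. They give a scale for a share, and an interval that covers 0 or leaves it out is not a test. The libraries held 2903580 to 24917810 reads after filtering. They measured DNA, so the cell type itself could not be checked on marker transcripts. The 10, 30 and 60 min C/EBPα libraries had reads of 50 bases, the C/EBPβ libraries 40 and all others 36.

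PU.1 is an ETS family factor needed for both B cell and macrophage development, and it binds purine-rich DNA with a GGAA core, most readily as GAGGAAGT. C/EBPα and C/EBPβ are leucine-zipper factors that bind words such as TTGCNNAA, where N is any base, and act on myeloid genes. In macrophages these factors occupy many regions together, whereas in B cells PU.1 works beside factors such as Ebf1, Pax5 and the IRF proteins.

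The sequences below are picked examples and do not stand for all PU.1-only bins, of which 30.1% held GAGGAAGT and 58.9% the shorter GGAAGT. The first 4 below, the bins with the highest lowest-of-5 PU.1 level, are shown because they kept the most PU.1 in their lowest library. Coordinates are of mm9, bases are read 5′ to 3′ on the plus strand, and capitals mark GAGGAAGT or, where it was absent, GGAAGT or GGAA, with ACTTCCTC, ACTTCC and TTCC as the same words on the other strand. A bin that touched an untranslated exon is shown by 30 bases around its word. Each is named by the gene with the nearest annotated start, which can be the start of a shorter transcript inside the gene.
Trim7 (chr11:48667401-48667600): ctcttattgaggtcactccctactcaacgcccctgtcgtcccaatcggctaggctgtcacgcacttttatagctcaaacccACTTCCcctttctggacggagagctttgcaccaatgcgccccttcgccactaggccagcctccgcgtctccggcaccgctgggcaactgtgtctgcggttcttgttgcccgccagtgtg
Tmem38b (chr4:53873074-53873103): aggagacaaaaGAGGAAGTgctttggttca
Barx2 (chr9:31648801-31649000): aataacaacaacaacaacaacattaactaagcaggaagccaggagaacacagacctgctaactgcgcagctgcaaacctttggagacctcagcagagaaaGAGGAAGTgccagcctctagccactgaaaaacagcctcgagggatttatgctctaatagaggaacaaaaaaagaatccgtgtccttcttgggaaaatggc
Gm9956 (chr10:56457001-56457200): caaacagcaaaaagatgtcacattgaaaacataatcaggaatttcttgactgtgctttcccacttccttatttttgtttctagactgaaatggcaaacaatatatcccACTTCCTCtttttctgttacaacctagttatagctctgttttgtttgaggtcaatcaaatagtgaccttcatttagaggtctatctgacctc
The bins near Tmem38b, Barx2 and Gm9956 held the full GAGGAAGT, preceded on its strand by a run of A and G, and the Trim7 bin held the shorter GGAAGT. The next pair is shown because their PU.1 levels differed most between 0 and 48 hpi, higher at 48 hpi near Klhl9 and lower near Akap9.
Klhl9 (chr4:88360201-88360400): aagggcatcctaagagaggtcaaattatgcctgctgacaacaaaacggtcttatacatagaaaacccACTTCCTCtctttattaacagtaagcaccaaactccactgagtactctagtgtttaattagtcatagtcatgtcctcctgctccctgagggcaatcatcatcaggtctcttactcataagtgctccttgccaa
Akap9 (chr5:4081721-4081750): tttcagTTCCtcttgctacaaGGAAacacc
Bins near a B cell gene, a macrophage gene and a blood progenitor regulator show the range of words near blood cell genes.
Rag1 (chr2:101483801-101484000): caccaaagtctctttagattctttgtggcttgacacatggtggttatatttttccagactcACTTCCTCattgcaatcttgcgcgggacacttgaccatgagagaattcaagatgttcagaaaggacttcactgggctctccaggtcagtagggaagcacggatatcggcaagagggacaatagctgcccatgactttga
Fcgr1 (chr3:96088401-96088600): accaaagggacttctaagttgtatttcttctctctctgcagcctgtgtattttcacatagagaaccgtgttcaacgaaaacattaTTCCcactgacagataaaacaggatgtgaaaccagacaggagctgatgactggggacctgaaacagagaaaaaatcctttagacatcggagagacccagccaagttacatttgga
Runx3 (chr4:134684801-134685000): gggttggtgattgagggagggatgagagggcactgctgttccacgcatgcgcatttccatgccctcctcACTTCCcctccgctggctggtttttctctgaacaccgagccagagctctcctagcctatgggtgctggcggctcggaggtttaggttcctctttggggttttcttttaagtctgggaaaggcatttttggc
The last is shown because it held no GGAA on either strand.
Pax8 (chr2:24281401-24281600): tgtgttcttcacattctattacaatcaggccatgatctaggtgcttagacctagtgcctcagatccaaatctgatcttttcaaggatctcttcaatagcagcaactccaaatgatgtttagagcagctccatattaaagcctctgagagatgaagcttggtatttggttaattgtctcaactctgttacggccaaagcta

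PU.1 levels chose these bins, so they are given as a description. In PU.1-only bins the median PU.1 level was 46.8 at 0 hpi, 47.1 at 3 hpi, 47.6 at 12 hpi, 34.4 at 24 hpi and 44.0 at 48 hpi. In constant PU.1 bins with C/EBP the medians were 58.1, 76.0, 69.1, 50.2 and 55.4. The PU.1-only bins therefore had the lower median in each of the 5 libraries, and their medians at 0, 3 and 12 hpi lay within 1 unit of each other. The 24 hpi library gave the lowest value in 53.4% of PU.1-only bins and in 41.3% of constant PU.1 bins with C/EBP, so the dip at 24 hpi was seen in both. The highest value was at 0 hpi in 32.6% of PU.1-only bins, 16.8% of bins with C/EBP and 23.6% of all constant PU.1 bins, and at 3 hpi in 22.4%, 44.5% and 28.8%. The lowest-of-5 level was under 25, close to the threshold, in 783 of the 2349 bins.

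**Figure D1:**
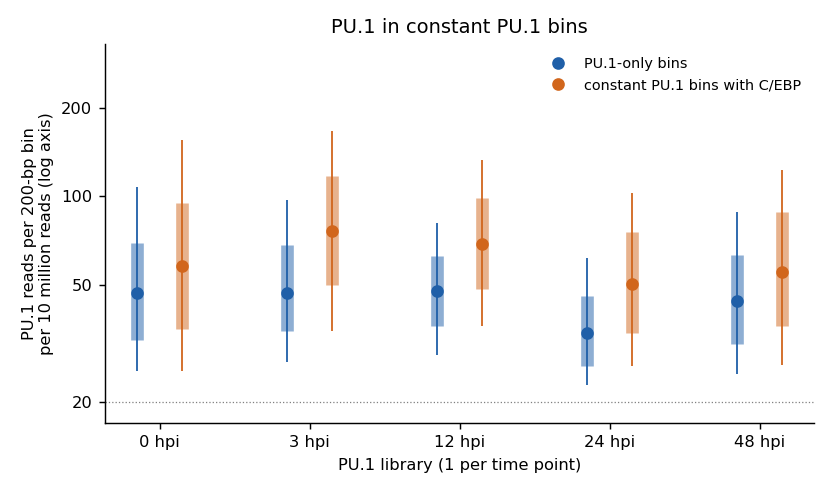
PU.1 reads per 200-bp bin and 10000000 reads (log axis) in the 5 PU.1 libraries, for PU.1-only bins and for constant PU.1 bins with C/EBP. Points are medians, thick bars the 25th to 75th percentiles, thin lines the 10th to 90th, and the dotted line the threshold of 20. The medians of PU.1-only bins lay between 34.4 and 47.6, and those of bins with C/EBP peaked at 76.0 at 3 hpi.

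From 0 to 3 hpi the median log2 ratio of PU.1, with 1 added to both levels, was -0.01 in PU.1-only bins (25th to 75th percentile -0.28 to 0.30) and 0.27 in constant PU.1 bins with C/EBP (-0.03 to 0.61). At 3 hpi 49.9% of PU.1-only bins and 72.9% of bins with C/EBP were above their own 0 hpi level. Over all constant PU.1 bins the median 3 hpi ratio went with the highest C/EBPα level of the bin. It was 0.00 where C/EBPα stayed at 3 or less, 0.10 at 7 to 10, 0.16 at 10 to 20, 0.25 at 20 to 40 and 0.30 above 40. By 48 hpi the medians were -0.13 and -0.12 in the same 2 sets. The sign of the first depended on the rule: it was 0.039 when PU.1 at 0 hpi was not required and -0.22 when PU.1 at 48 hpi was not required. All bins of a set shared the same pair of libraries in each ratio. With the rule rerun on libraries thinned to the smallest, the 48 over 0 hpi median of PU.1-only bins was -0.11. Scaled to reads away from enriched bins, that median was -0.078. A difference between 2 libraries in depth or enrichment was not tested as a part of the 3 hpi ratio, nor of the ratios in bins with C/EBP.

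At 48 hpi PU.1 was at least 2-fold higher than at 0 hpi in 135 PU.1-only bins, 5.75%, where the share over all constant PU.1 bins was 5.89%, and at least 2-fold lower in 251 bins, 10.7%, where it was 9.77%. Both shares were near those of constant PU.1 bins as a whole. Among all bins with PU.1 of 20 or more at 0 or 48 hpi, which need not be constant, the shares were 28.2% and 19.3%. The highest level of a PU.1-only bin was a median 1.99 times its lowest, and under 2 times in 50.96% of bins, where the values over all constant PU.1 bins were 1.97 and 51.7%.

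The strongest bin by its lowest level lay beyond the end of Trim7, which encodes a ubiquitin ligase, and 6097 bp from an annotated start within that gene. Its PU.1 levels were 248, 242, 214, 162 and 203 at 0, 3, 12, 24 and 48 hpi. The bin in an untranslated exon near the end of Tmem38b, which encodes an ion channel of the endoplasmic reticulum, had 322, 262, 176, 155 and 218. It lay 19759 bp from an annotated start within that gene. The intergenic bin 72146 bp from the start of the homeobox gene Barx2 had 274, 265, 155, 148 and 189. These 3 bins had their highest level at 0 hpi and their lowest at 24 hpi. The bin at -7839 bp from the start of Gm9956, where the minus marks a place before the start, had 228, 233, 175, 144 and 235, with overlapping intervals at 0 hpi (194 to 266) and 48 hpi (207 to 266). Their overlap is no test of a lack of change. The remaining bins of the 8 strongest lay in introns of Piwil2, Gramd3 and Suclg2 and at -90365 bp from Irf2bp2, with lowest levels from 122 to 136. Of the 8, those near Trim7 and Suclg2 lacked GAGGAAGT. C/EBPα never exceeded 4.82 and C/EBPβ never exceeded 6.4 in any library at these 8 bins.

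Near Klhl9, an adaptor of a ubiquitin ligase, PU.1 stood at 24.1, 50.2, 77.5, 67.8 and 145 in the order of the time points, from 24.1 (14.0 to 38.6) at 0 hpi to 145 (123 to 170.2) at 48 hpi. This bin was picked for the highest ratio of 48 over 0 hpi, so its intervals are no test of a change. The intron bin of Cisd2 had 32.6, 60.8, 99.9, 77.5 and 146. In both, each later library exceeded the 0 hpi library. The bin nearest to Ranbp6 had 22.7 to 28.0 through 24 hpi and 95.5 at 48 hpi. The bin nearest to Btg1, an antiproliferative gene, had 24.1, 22.8, 50.4, 36.1 and 96.5. The reverse pattern was found beyond the end of Akap9, which encodes a scaffold protein of the centrosome and had the nearest start at 16405 bp. That bin lay in an untranslated exon of another protein-coding gene and had 196, 155, 73.7, 48.5 and 22.9. At a bin inside Pold1, the catalytic subunit of DNA polymerase delta, levels were 177, 120.1, 104.5, 55.5 and 26.8. It lay at -142 bp from an annotated transcript start within the gene, which spans chr7:51788116-51804219 on the minus strand. That start is not the outer 5′ end of Pold1. Intron bins of Jakmip2 and Dnahc9 went from 126 to 21.0 and from 110.6 to 20.1. In these 4 bins every later library was lower than the one before it. Among the most even bins were those near Rap1a, D630042P16Rik and Tbpl1, where the highest level was 1.08 to 1.14 times the lowest. At Rap1a, a small GTPase gene, the 5 levels ran from 43.9 to 47.6, and at Tbpl1, a TATA-box-binding protein relative, from 60.8 to 69.1.

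At the C/EBP limits the bins were separated by a few reads. The limits allowed 12 C/EBPα reads in the deepest library but 2 reads at 12 hpi, and 2 C/EBPβ reads at 0, 12 and 24 hpi. A count of 0 at 12 hpi in the C/EBPβ series allows a level of up to 10.3, taken as 3 reads, above the limit itself. C/EBPα exceeded 4 in some library in 308 PU.1-only bins and C/EBPβ exceeded 6 in 442. Just inside the limits, PU.1-only bins at chr4:53873001-53873200 and chr5:101155001-101155200 had a highest C/EBPα level of 4.82, and those at chr1:13326201-13326400 and chr1:16611201-16611400 a highest C/EBPβ level of 6.89. Just outside, bins at chr1:10270201-10270400 and chr1:16102201-16102400 reached C/EBPα 5.02, and bins at chr1:46978401-46978600 and chr1:55039601-55039800 reached C/EBPβ 7.004. At the PU.1 threshold, bins at chr1:14903401-14903600 and chr1:71858201-71858400 were taken with a lowest level of 20.1, and bins at chr1:21886401-21886600 and chr1:57036801-57037000 were left out at 19.9.

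The C/EBP level of PU.1-only bins was low but above the genome mean. With the libraries pooled, C/EBPα averaged 1.44 (1.42 to 1.46) per PU.1-only bin, 26.0 per constant PU.1 bin with C/EBP and 0.814 over all bins. C/EBPβ averaged 1.66 (1.62 to 1.69), 21.7 and 0.813. C/EBPα was at 0 reads in 5.45% of PU.1-only bins in the deepest library, at 10 min, and in 38.6% in the shallowest, at 12 hpi. C/EBPβ was at 0 reads in 36.7% at 48 hpi to 63.6% at 12 hpi, its shallowest library. A share at 0 reads depends on the depth of the library, and the rule capped the levels at a number of reads that differed between libraries, so no course over time is read from them. The name PU.1-only thus means C/EBP at or under the limits, and not the absence of C/EBP reads.

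The PU.1 summit of a site was searched inside its bin only, so it could lie at the side of a PU.1 peak. The flanks lay outside the bin that held the summit, but they could reach into another chosen bin, of the same site or of one close by. Of the bins with C/EBP, 59.7% had a neighbouring bin with C/EBPα of 20 or more. The flank levels of that set are therefore not independent of how it was chosen. In windows 200 to 1000 bp on either side of the PU.1 summit of each site, C/EBPα stood at 6.82 (6.72 to 6.91) reads per kb, on the same scale, at 0 hpi and 5.87 (5.82 to 5.92) at 10 min. It was 6.70 at 30 min and 6.94 at 60 min. Later it was 8.17 (8.08 to 8.27) at 3 hpi, 8.47 (8.35 to 8.6) at 12 hpi and 7.53 (7.43 to 7.63) at 48 hpi. The highest value, at 12 hpi, was 24.3% above 0 hpi, and it was 2.14 times the mean over all bins of 3.95. Beside constant PU.1 bins with C/EBP the flanks held 10.9 (10.8 to 11.1) at 0 hpi and 23.3 (23.2 to 23.5) at 3 hpi, which was 114% higher. Beside intermediate bins they held 8.66 at 0 hpi, and 50.9% more at 3 hpi and 58.8% more at 12 hpi. At 10 min C/EBPα was 7.41 beside intermediate bins and 10.8 beside bins with C/EBP. The 10 min library had reads of 50 bases and the 0 hpi library of 36, and the part of read length was not tested. C/EBPβ beside PU.1-only sites was 7.75 (7.61 to 7.89) at 0 hpi, 7.38 (7.21 to 7.55) at 12 hpi and 8.84 (8.69 to 8.98) at 48 hpi, and beside sites with C/EBP it was 13.9 and 23.5 at 0 and 48 hpi. Farther out, 3 to 5 kb from PU.1-only summits, C/EBPα was 5.26 to 6.86, so the flanks exceeded the surroundings in each of the 8 libraries. There too it was higher at 3 hpi (6.77) and 12 hpi (6.86) than at 0 hpi (5.88), so the higher level was not confined to the flanks. Without an input library, reads that come from open chromatin and reads that come from C/EBP cannot be told apart here.

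At the summit itself C/EBPα in PU.1-only sites was 1.14 to 1.47 times its own flanks over the 8 libraries, and C/EBPβ was 1.25 to 1.57 times over the 5. The rule capped these centre values at a number of reads that differed between libraries, so no course over time is read from them. In sites with C/EBP, which were chosen for C/EBPα of 20 or more in some library, the C/EBPα ratio was 3.94 at 0 hpi and 11.1 at 12 hpi, and that of C/EBPβ was 8.76 at 48 hpi. The C/EBPα difference between the sets at the summit is therefore part of their definition. The window at the summit was not wholly inside the bins that the rule limited, since 810 of the 2111 summits, 38.4%, lay within 25 bp of a bin edge. PU.1 at the summit of PU.1-only sites was 23.3 to 36.4 times its flanks.

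**Figure D2:**
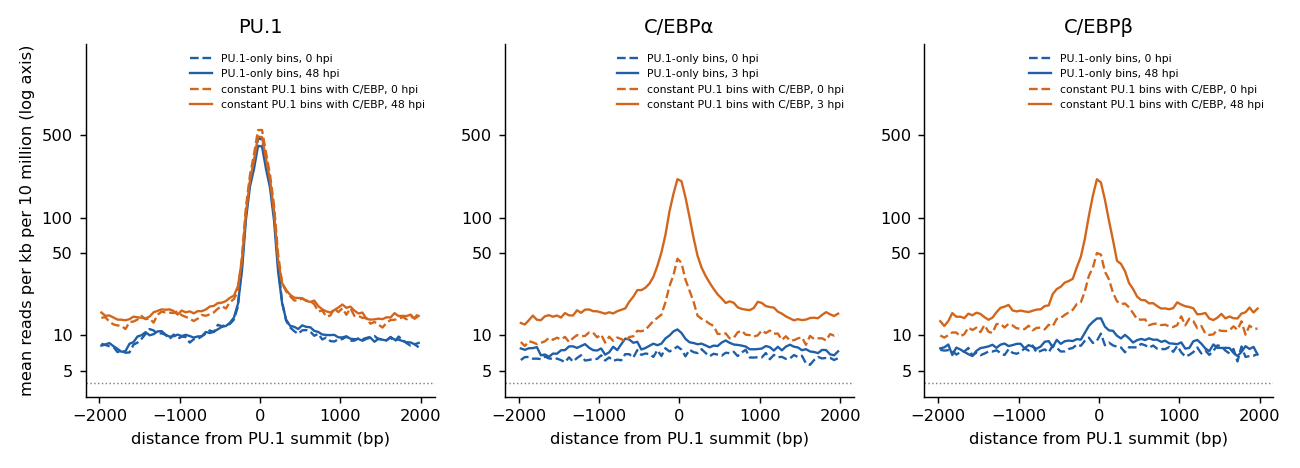
Mean reads per kb and 10000000 reads (log axis) by distance from the PU.1 summit, for PU.1 and C/EBPβ at 0 and 48 hpi and C/EBPα at 0 and 3 hpi. The summit was searched inside the bin of each site only. Blue lines are the 2111 PU.1-only sites, orange lines the 1664 sites of constant PU.1 bins with C/EBP, and the dotted line the mean over all bins. The sets were chosen by these levels: the PU.1 summit in both, and C/EBPα at 3 hpi at 8.93 times its flanks in sites with C/EBP and 1.33 times in PU.1-only sites, follow from the rule at the centre.

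Bins beside C/EBP reads were more frequent among PU.1-only bins than in the genome and less frequent than among other constant PU.1 bins. A neighbouring bin over a C/EBP limit was found for 1304 of the 2349, 55.5%, compared with 85.7% of intermediate bins, 99.6% of bins with C/EBP and 14.3% of all bins. A neighbouring bin with C/EBPα of 20 or more was found for 27, 1.15%, compared with 9.85%, 59.7% and 0.309%. Within 1 kb of such a bin lay 4.77% of PU.1-only bins, 17.99% of the intermediate constant PU.1 bins and 1.18% of all bins. Within 10 kb the shares were 26.9%, 43.0% and 8.02%. In 1622 of the 2111 sites, 76.8%, the bin had more PU.1 than both bins beside it, compared with 91.5% of sites with C/EBP, so the rest of the PU.1-only sites had as much PU.1 or more in a bin beside them. Of the PU.1-only bins 663, 28.2%, touched a constant PU.1 bin that was over a C/EBP limit, so part of them lay at the side of PU.1 signal whose neighbouring bin was left out by the rule.

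Sequence was not used by the rule, and the share of bins with the PU.1 and C/EBP words differed between the sets. GAGGAAGT, searched on both strands, was found in 706 PU.1-only bins, 30.1% (28.2 to 32.0), in 21.5% (19.8 to 23.4) of constant PU.1 bins with C/EBP and in 1.2% of all bins. The difference was 8.53 percentage points (5.96 to 11.1). With read starts not moved inward the rule gave other bins, and GAGGAAGT was in 18.7% (17.1 to 20.4) of them. TTGCNNAA was found in 133 PU.1-only bins, 5.66% (4.76 to 6.67), in 19.2% (17.5 to 20.9) of bins with C/EBP and in 9.28% of all bins, a difference of -13.5 points (-15.5 to -11.6). Against the 4521 constant PU.1 bins with C/EBPα at 10 or more in some library, the difference was -7.21 points (-8.54 to -5.83). All bins with the GC content of the PU.1-only bins held TTGCNNAA in 8.72% and GAGGAAGT in 1.33%. The C/EBP word was thus less frequent in PU.1-only bins than in the genome at the same GC, and the PU.1 word 22.7 times more frequent.

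GAGGAAGT was the more frequent word in PU.1-only bins at each PU.1 level. Among bins with a mean PU.1 of 20 to 40 the shares were 25.3% and 12.5%, at 40 to 80 they were 30.2% and 18.4%, and above 80 they were 46.6% and 30.6%. Within 1 kb of a gene start the shares were 25.6% and 25.4%, with an interval of the difference from -7.45 to 8.002 points. At a GC content of 50 to 55% the difference was 3.00 points (-3.23 to 9.36). The difference in TTGCNNAA was -12.8 to -14.7 points in the 3 PU.1 classes. The word lay close to the PU.1 summit: among 694 PU.1-only sites with GAGGAAGT the median distance was 18 bp and 71.3% were within 25 bp, whereas the median was 55 bp for TTGCNNAA and 58 bp for the RUNX word. Counted within 100 bp of the summit instead of inside the bin, GAGGAAGT was held by 42.8% of PU.1-only sites and 29.3% of sites with C/EBP.

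The RUNX, EBF1 and AP-1 words were also less frequent in PU.1-only bins than in bins with C/EBP, whereas over all bins the intervals of the differences in the PU.1-IRF and E2A words covered 0. TGTGGTT, the RUNX word, was in 4.598% (3.79 to 5.52) of PU.1-only bins and 9.73% (8.48 to 11.1) of bins with C/EBP, beside 4.73% of all bins. TCCCNNGGG, the EBF1 word, was in 2.13% (1.58 to 2.80), 7.08% (6.01 to 8.27) and 1.87%. TGACTCA, the AP-1 word, was in 4.56% (3.75 to 5.48), 7.03% (5.97 to 8.21) and 3.14%, but within GC classes from 40 to 55% each interval of its difference covered 0. RUNX and EBF1 words in PU.1-only bins were close to their share in all bins of the same GC content, 4.81% and 2.17%. The EBF1 word was more frequent at higher GC content in both sets, and at 45 to 50% GC its difference was -2.11 points (-4.53 to 0.15). GGAANNGAA, the composite word of PU.1 with an IRF protein, was in 16.7% and 18.6%, a difference of -1.85 points (-4.11 to 0.39), beside 6.4% of all bins. Its difference was 5.30 points (1.39 to 8.75) at a mean PU.1 of 20 to 40 and -3.78 points (-9.55 to 2.57) above 80. By GC content it was -5.51 points (-10.8 to -0.45) at 40 to 45%, -2.76 points (-7.18 to 1.62) at 45 to 50% and -5.64 points (-10.5 to -0.52) at 50 to 55%, and over 1 kb from a gene start it was -2.53 points (-4.97 to -0.11). CAGGTG, the E2A word, was in 10.4% and 10.8%, a difference of -0.35 points (-2.19 to 1.46), beside 12% of all bins. At 50 to 55% GC its difference was 8.01 points (2.86 to 13.4).

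The remaining words were mostly rare. GGAAGT, the core of ETS sites, was in 58.9% (56.9 to 60.9) of PU.1-only bins, 55.6% (53.4 to 57.8) of bins with C/EBP and 11.3% of all bins, and GGAA alone in 96.4%, 98.2% and 87.5%. The promoter ETS word CCGGAAGT was in 0.383%, 0.867% and 0.124%. CCAAT, the NF-Y word, was in 24.3% (22.5 to 26.1), 20.5% (18.8 to 22.3) and 29.1%, below the genome share in both sets. GAAANNGAA, the ISRE word of IRF factors, was in 8.47% (7.38 to 9.67), 9.92% (8.67 to 11.3) and 7.83%. GGGCGGG, the SP/KLF word, was in 1.58% (1.11 to 2.16), 3.03% (2.34 to 3.86) and 1.02%. The STAT word TTCCNGGAA was in 0.255% (0.0938 to 0.555), 0.963% (0.589 to 1.48) and 0.507%, and the YY1 word AAGATGGC in 1.40% (0.969 to 1.97), 0.626% (0.334 to 1.07) and 1.77%. The NRF1 word GCGCATGCG was in 2 PU.1-only bins and the CTCF word AGGGGGCGC in 1, beside 0.0306% and 0.04% of all bins, too few to compare. A match describes letters in the bin and does not show that the factor binds there.

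**Figure D3:**
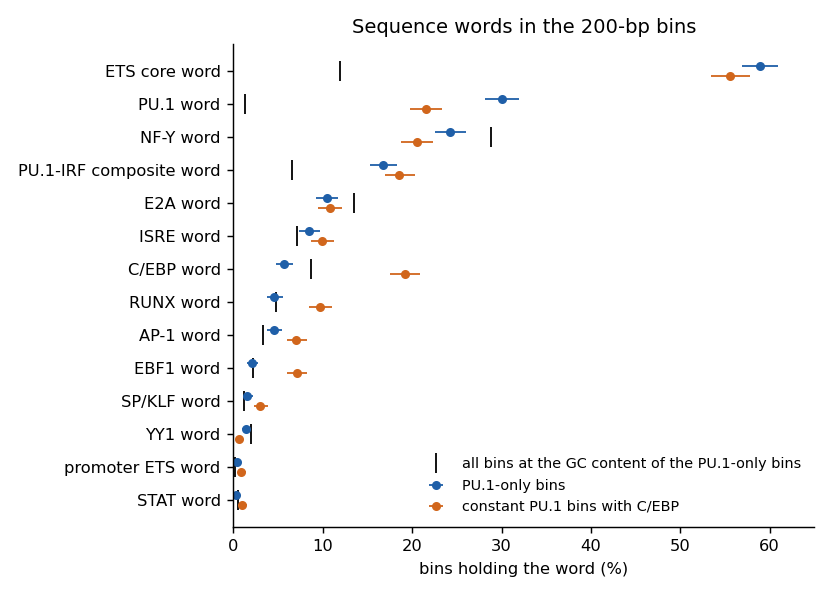
Share of 200-bp bins that hold each of 14 words on either strand, in percent, for PU.1-only bins (blue) and constant PU.1 bins with C/EBP (orange), with exact 95% binomial intervals. Black ticks give all bins at the GC content of the PU.1-only bins. The PU.1 and ETS core words lie far to the right of their ticks in both sets, and the C/EBP word lies left of its tick in PU.1-only bins at 5.66% and right of it in the other set at 19.2%.

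Read along the whole range of C/EBP, the words of constant PU.1 bins showed different courses. By the highest C/EBPα level of the bin, GAGGAAGT was in 32.5% (29.6 to 35.5) at 3 or less, 28.0% at 5 to 7, 23.9% at 10 to 20 and 21.1% (18.6 to 23.8) above 40. TTGCNNAA was in 5.48% (4.17 to 7.06) at 3 or less, 7.53% (6.51 to 8.65) at 10 to 20, 11.6% at 20 to 40 and 27.2% (24.5 to 30.1) above 40. Up to a C/EBPα level of 20 the share with the C/EBP word ran from 5.17% to 7.53%, and the classes above it were higher. By the highest C/EBPβ level the C/EBP word was in 5.57% at 3 or less, 8.66% at 10 to 20, 16.7% at 20 to 40 and 31.8% (28.2 to 35.5) above 40. These classes were drawn after the values were seen.

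**Figure D4:**
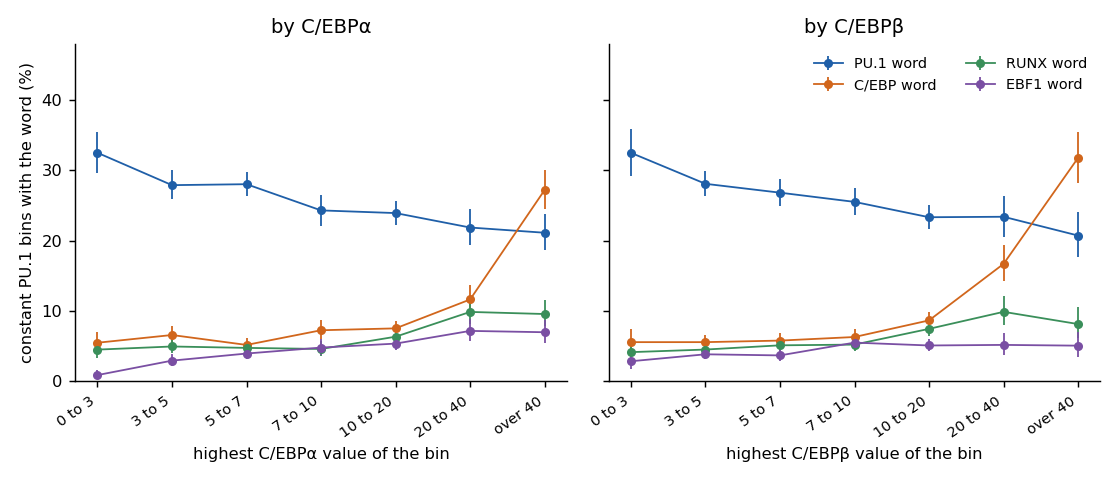
Share of constant PU.1 bins holding the PU.1, C/EBP, RUNX or EBF1 word, in percent, by the highest C/EBPα (left) or C/EBPβ (right) level of the bin over its libraries, with exact 95% binomial intervals. The PU.1 word declines from 32.5% to 21.1% along C/EBPα, and the C/EBP word reaches 27.2% in the last class. PU.1-only bins lie in the classes up to 5 on the left and up to 7 on the right.

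The median mean-of-5 PU.1 level was 47.8 in the 706 PU.1-only bins with GAGGAAGT, 45.1 in 677 with GGAAGT alone, 42.4 in 881 with another GGAA and 42.2 in 85 without GGAA. In bins with C/EBP the medians were 78.5, 64.3, 56.6 and 47.0, so the same word stood beside more PU.1 there. The 8-letter words held by the most PU.1-only bins, counted after the values were seen, were AGGAAGTG in 33.5%, GAGGAAGT in 30.1%, AGAGGAAG in 25.8% and AAGAGGAA in 25.1%. AAAAGAGG, a purine run before the core, was in 12.6% of PU.1-only bins, 5.30% of bins with C/EBP and 1.45% of all bins. Its share at matched GC content was not computed, and the median GC content of PU.1-only bins was 44.0%, compared with 48.5% in bins with C/EBP. The 8-letter words overlap one another. Of 67 sites whose bin held no GGAA, 56 had one within 100 bp of the summit, and in 48, 71.6%, the summit lay within 25 bp of the edge of the bin, compared with 38.4% of all PU.1-only sites. The Pax8 bin printed above, with a mean PU.1 level of 107, stood beside a bin with 139 that held GAGGAAGT, and its nearest GGAA was 16 bp from the summit. Without a GGAA in either window 11 sites remained, 0.521% of all.

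PU.1-only bins were poorer in GC than other constant PU.1 bins, and fewer of them lay within 1 kb of a gene start. Their median GC content was 44.0% (25th to 75th percentile 39.5 to 48.5), compared with 48.5% in bins with C/EBP, 49.5% in intermediate bins and 42.0% in all bins. They held a mean of 2.22 CpG dinucleotides, compared with 3.64 in bins with C/EBP and 1.69 in all bins. In 35 bins, 1.49%, there were 10 or more, compared with 6.55% and 1.02%. By GC class, PU.1-only bins made up 56.8% of constant PU.1 bins at 30 to 35% GC, 28.9% at 40 to 45% and 2.51% at 60 to 65%, while bins with C/EBP made up 15.7% to 23.8%. The C/EBPα level of bins with PU.1 under 5 in all 5 libraries was 0.498 at 30 to 35% GC, 0.807 at 40 to 45% and 1.15 at 55 to 60%. Background C/EBPα was thus higher in the GC classes where fewer constant PU.1 bins were PU.1-only, up to 60% GC, and its part in the choice of bins was not tested.

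Within 1 kb of an annotated start of a protein-coding gene lay 211 PU.1-only bins, 8.98% (7.86 to 10.2). The share was 13.8% (12.4 to 15.4) of bins with C/EBP, 19.7% of intermediate bins and 3.18% of all bins. It depended on the C/EBP limits, with 5.95% at limits of 3 for C/EBPα and 5 for C/EBPβ and 17.1% with the C/EBPβ limit alone. The median distance to a start was 14741 bp, compared with 13982 bp for bins with C/EBP and 10327 bp for intermediate bins. Of the PU.1-only bins 1204, 51.3%, had their centre in an intron, compared with 46.1% of all constant PU.1 bins and 36.4% of all bins. Another 1026, 43.7%, lay between genes, compared with 46.1% and 60.5%, and 78 were in an untranslated and 41 in a coding exon. The 211 bins near starts differed from the others in PU.1, with a median log2 ratio of 0.32 at 12 over 0 hpi compared with -0.08 in the 2138 bins farther away. In bins with C/EBP the same medians were 0.43 and 0.12, so the higher 12 hpi level near starts was seen in both sets.

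PU.1-only bins had 1782 protein-coding genes as their nearest, 8.37% of 21281, and bins with C/EBP had 1324, 6.22%. The sets shared 346 genes, 19.4% of the first and 26.1% of the second. Nearness to a start does not show that a bin acts on that gene, and genes with long introns or wide gaps around them are the nearest gene of more bins. Of 1782 genes, 1517 were nearest to 1 site and 48 to 3 or more. The most, 6, lay around Bcl11a, a transcription factor of B cell development, followed by 5 each around Fggy, Fhit and Gramd3.

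Among 14 transcription factors of the B lineage, 8 were the nearest gene of a PU.1-only bin and 4 of a bin with C/EBP, beside 8.37% and 6.22% of all genes. Of the 14, 10 were the nearest gene of any constant PU.1 bin, beside 23.2% of all genes. The 8 were Bach2, Bcl11a, Ebf1, Foxo1, Ikzf1, Irf4, Irf8 and Pax5, of which Bach2, Bcl11a and Ikzf1 were in both counts. The order held for the nearest gene at any distance only: within 10 kb of a start the counts were 2 and 3, within 1 kb they were 1 and 1, and 14 of the 17 PU.1-only sites lay farther than 10 kb away. Over all genes the shares were 3.89% and 2.96% within 10 kb, and 0.926% and 1.08% within 1 kb. Around Ebf1, which specifies early B cells, a bin 228461 bp from a start had PU.1 at 196, 192, 119, 67.8 and 114, and a bin 61661 bp from it had 105, 105, 48.5, 41.4 and 47.8. The bin at -1118 bp from an Ebf1 start had 24.1, 33.5, 33.6, 30.8 and 41.1. The 2 distal bins were highest at 0 and 3 hpi, and the one near the start was highest at 48 hpi. An intron bin of Pax5, which keeps B cells committed, had 68.1, 63.9, 28.0, 31.7 and 20.1. Bins around Ikzf1, encoding the lymphoid factor Ikaros, had 93.6, 91.2, 82.1, 56.4 and 53.5 at -17305 bp from a start and 115, 103, 75.6, 80.2 and 109 at 11879 bp after it. The intron bin of Irf8 stayed between 38.02 and 49.6. Near Bcl11a the bin at -969 bp from a start had 26.9, 31.9, 55.1, 37.0 and 29.6, and the bin 4631 bp after it had 28.4, 47.1, 43.9, 26.4 and 34.4.

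Of 18 genes of the pre-B cell receptor and its signalling, 4 were nearest to a PU.1-only bin and 4 to a bin with C/EBP. Any constant PU.1 bin was counted for 10 of them. Over all genes these shares were 8.37%, 6.22% and 23.2%. The bin in the coding exon of Rag1, a recombinase that assembles antigen receptor genes, had PU.1 at 53.9, 42.6, 33.6, 28.2 and 50.6 and held GAGGAAGT. In an intron of Lyn, a Src family kinase, the levels were 39.7, 38.02, 24.3, 23.8 and 22.9. Of the 6 sites of this list, the other 4 lay farther than 10 kb from a start. Another Lyn intron bin had 89.3, 123, 70.9, 43.2 and 69.8. The remaining bins were higher at 48 than at 0 hpi. Levels went from 26.9 to 41.1 in an intron of Blnk and from 42.5 to 58.3 before Dntt. At -27561 bp from a Lyn start they went from 51.05 to 79.3.

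Of 25 macrophage genes, 5 were nearest to a PU.1-only bin (Csf2ra, Ctsb, Emr1, Fcgr1 and Tlr2) and 14 to a bin with C/EBP, and 3 genes were in both counts. Those with C/EBP alone were 11, among them Lyz1, Csf1r (the receptor of CSF-1) and Mmp12 (secreted by macrophages). Over all genes, those with C/EBP alone were 978 of 1324, so most were without a PU.1-only bin there too. Of the 25, 20 were the nearest gene of any constant PU.1 bin, 80%, beside 23.2% of all genes. At the coding-exon bin of Fcgr1, an Fc receptor, PU.1 was 97.8, 105, 87.7, 48.5 and 42.0, lower at 24 and 48 hpi than before. Before Csf2ra, a chain of the GM-CSF receptor, it was 83.7, 106, 78.4, 36.1 and 48.7. Near Tlr2, a receptor for bacterial lipoproteins, it was 25.5, 22.8, 49.5, 43.2 and 56.4, higher from 12 hpi on.

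Of 17 regulators of blood progenitors, 4 were nearest to a PU.1-only bin and 5 to a bin with C/EBP. The intron bin of Runx3 had 34.0, 30.4, 56.9, 44.1 and 38.2, and the bin at -4728 bp from a Runx1 start had 28.4, 38.02, 39.2, 22.0 and 27.7. Of 22 genes of leukocyte adhesion and signalling the counts were 7 and 11, with 6 shared. Over all genes they were 1782 and 1324, with 346 shared. Of the 17 and the 22 genes, 11 and 21 were the nearest gene of any constant PU.1 bin, beside 23.2% of all genes. The intron bin of Itgb7, an integrin chain of lymphocytes, ran from 59.0 to 90.8, and the coding-exon bin of Ptpn6, encoding the phosphatase SHP-1, from 26.9 to 44.1. The 3 bins around Ptprc, the leukocyte marker CD45, had their lowest level at 24 hpi.

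For lists of general cell functions the shares with a PU.1-only bin ran from 4.11% to 11.4%, around the 8.37% of all genes. For cytosolic ribosomal proteins the counts were 7 of 78 with PU.1-only bins and 2 with C/EBP, for mitochondrial ribosomal proteins 3 of 73 and 5, for proteasome subunits 2 of 38 and 2, and for splicing factors 5 of 61 and 3. For the vacuolar ATPase, Vps and Rab proteins, which serve endosomes and lysosomes, they were 13 of 114 and 10. Rab35, a GTPase of endosome recycling, had a bin at -7637 bp from its start with PU.1 at 199, 196, 129, 110.1 and 145. Bins near Rpl8 and Rps9 ran from 30.6 to 45.6 and from 28.2 to 60.7. The bin near Psmb4 was lower at 24 and 48 hpi (21.1 and 22.0) than at 0 hpi (56.7), as was the intron bin of Sf3b1 (24.7 and 28.7 after 53.9). The bins near Snrpe and Rab39 ran from 22.8 to 32.7 and from 60.8 to 104.

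**Figure D5:**
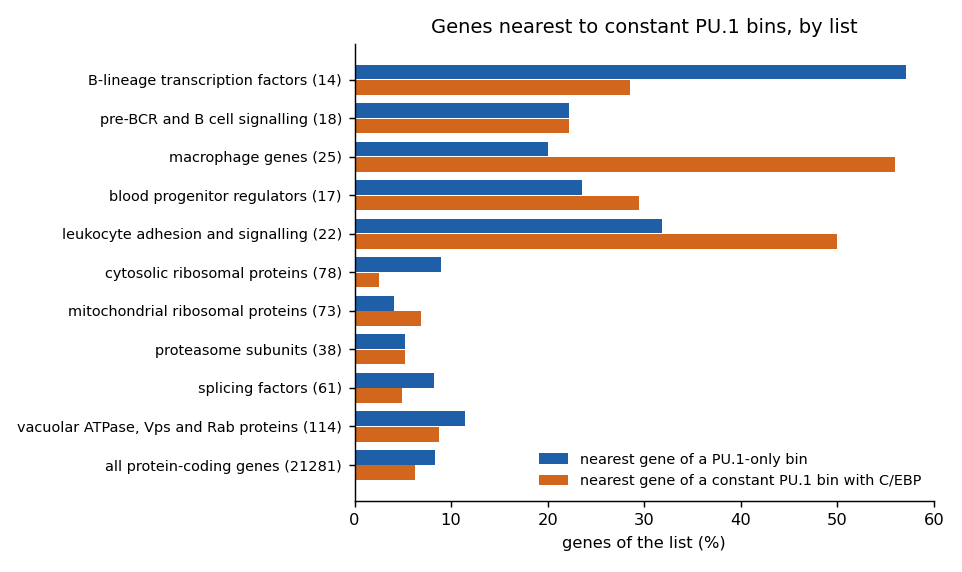
Share of the genes of each list that were the nearest gene of a PU.1-only bin (blue) or of a constant PU.1 bin with C/EBP (orange), in percent, with the number of annotated genes in brackets. Blue exceeds orange for B-lineage transcription factors (57.1% and 28.6%), and orange exceeds blue for macrophage genes (56% and 20%). Within 10 kb of a start the B-lineage shares are 14.3% and 21.4%, the other way round, and the macrophage shares 16% and 44%. Over all genes the shares within 10 kb are 3.89% and 2.96%. The lists are small and no test was made.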

How the data were processed

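Per the study's methods, the authors placed ChIP-seq reads on mm9 allowing no mismatch, by Bowtie or by ELAND, and dropped identical reads and those with more than 1 place; which aligner made which library, and the versions, are not given in the sources used here. The submitters' processing notes also name HOMER. The deposited files list aligned reads by position and strand (other: no count or signal), 1 file per library. Of the 18 libraries, 5 C/EBPα libraries still held repeated positions, at most 2.51% of reads. Reads were reduced to 1 per position and strand, moved 75 bp, counted in 200-bp bins of chromosomes 1 to 19 and scaled to 10000000 reads. Sites are touching bins, represented by the bin with the highest mean PU.1. The summit is the base inside that bin with the most PU.1 reads within 50 bp, over the pooled PU.1 libraries. It can therefore lie at the side of a PU.1 peak whose top is in a bin beside it. Sequence and genes are from NCBIM37 (mm9) with GENCODE vM1; distances run from the bin centre to the nearest protein-coding start.

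The 16 words and GGAA were matched exactly on both strands; shares at the same GC content were standardised in 2% classes; intervals of differences are Newcombe's. Bins overlap peaks and neighbours, so bins are not replicates, and no p-value was computed. The members and lists were chosen with earlier results of these data known. The sites named were the 8 with the highest lowest-of-5 PU.1, the 4 highest and 4 lowest in the 48 over 0 hpi ratio, up to 2 within 10 kb of a start for each gene list, the 4 most even (1 of them is not reported here) and those nearest to each threshold; other sites of the blood cell lists were named after their values were seen. Of the 10 lists, gene names were matched to the annotation. Counting was tested on simulated reads. Alternatives changed duplicates, shift, bin start, scaling, thresholds, depth and the PU.1 libraries required. Python 3.11.15, numpy 2.4.6, pandas 2.3.3, scipy 1.17.1 and numba 0.67.0 were used.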

Additional observations from a re-analysis of the deposited data

How the results depend on the processing

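No paired analysis was possible because each factor and time point was 1 library. The rule gave 2349 bins, with C/EBPα beside them at 6.96 reads per kb. With PU.1 of 30 or more, 1084 bins were taken, C/EBPα beside them was 6.82 reads per kb and GAGGAAGT was in 33.4%. With C/EBPα of 3 or less and C/EBPβ of 5 or less, the values were 739 bins, 6.12 and 33.3%, with 5.95% within 1 kb of a start and a median GC content of 41.5%. With the limits also in the bins on both sides they were 1045 bins, 5.59, 35.5%, 6.12% and 43.5%. With the C/EBPα limit alone C/EBPα beside the bins was 7.13. With the C/EBPβ limit alone 5370 bins were taken, C/EBPα beside them was 8.48, 17.1% lay within 1 kb of a start and the median GC content was 47.5%. With 1 bin per site GAGGAAGT was in 32.9%.

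With read starts not moved, GAGGAAGT was in 18.7% and TTGCNNAA in 6.78% of bins, 10.9% lay within 1 kb of a start and C/EBPα beside them was 7.58. With starts moved by a distance read from each library's own strands, C/EBPα beside the bins was 6.92. Bins starting at 100 held TTGCNNAA in 6.84%. With libraries thinned to the smallest, C/EBPα beside the bins was 7.26 and 10.5% lay within 1 kb of a start. Scaled to reads away from enriched bins, the median PU.1 log2 ratio of 48 over 0 hpi was -0.078 and C/EBPα beside the bins 7.06.

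With 1 PU.1 library left out of the rule in turn, the number of bins was 2385 to 2839, C/EBPα beside them 6.86 to 7.08, the share with GAGGAAGT 28.7% to 30.4%, with TTGCNNAA 5.55% to 6.16%, within 1 kb of a start 8.21% to 9.59% and the median GC content 43.5% to 44.5%. The median log2 ratio of 48 over 0 hpi ran from -0.22 to 0.039, and it was 0.039 when the 0 hpi library was not required. The difference in GAGGAAGT from bins with C/EBP was 12.8, 11.8 and 16.0 points in the 3 PU.1 classes, and that in TTGCNNAA was -7.21 points against bins with C/EBPα of 10 or more. The cause of these shifts was not tested. Leaving out repeats was not run, since the genome used carries no repeat marking. One library per factor and time point, no input and limits of as few as 2 reads bound every statement, and a bin called PU.1-only at 12 hpi could hold C/EBPβ that this depth does not show.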
